A study of Mus musculus with 17 samples.

Results

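The cytosolic ribosomal protein genes were taken as all genes whose symbol begins with Rpl or Rps and continues with a number, a P-stalk name or the letter a, with or without a paralog suffix. This rule found 87 of the 56953 genes in the count table, 54 named for the large subunit and 33 for the small subunit, and used no measured value. GENCODE M21 annotates 83 of them as protein coding, Rps4l as a transcribed processed pseudogene, and Rps12l1, Rpl32l and Rpl6l as processed pseudogenes. RNA-seq had been made from the prefrontal cortex of B6C3F1/J mice aged 8 months, with 5 libraries from WT mice, 6 from hTau mice and 6 from CgA-KO/hTau mice. The hTau mice are the PS19 line, heterozygous for a human MAPT transgene with the P301S mutation under the mouse Prnp promoter, and carry intact Chga. The CgA-KO/hTau mice carry the same transgene and lack Chga, the gene of chromogranin A, in the whole body from conception. The knockout was made on a mixed background and brought into B6C3F1/J by backcrossing. Any remaining difference in background cannot be told apart from the loss of Chga. There was no library from mice that lacked Chga without the transgene, so the effect of the knockout alone cannot be told apart from its effect in tauopathy. The comparisons ask how the transgene, and the loss of Chga on top of it, go with the level of each gene.

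Each cytosolic ribosome is built from a small subunit, which reads the mRNA, and a large subunit, which joins amino acids and holds the tunnel through which the new protein leaves. Cells make the proteins of both subunits in matched amounts, and most of their mRNAs begin with a run of pyrimidines at the cap, the 5′ terminal oligopyrimidine (TOP) tract, through which mTOR and LARP1 set their translation and stability. In neurons a part of these mRNAs is found in dendrites and axons.

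RefSeq start-site windows on GRCm38.p6 were found for 64 of the 87 genes. The search was for a C followed by at least 4 letters that are each C or T, anywhere in the 30 bases from 10 before to 20 after an annotated start, on the strand that is transcribed. Of the 64 genes, 44 (68.8%) held such a run at one of their starts, against 39.6% of the 27025 genes with a window. On the other strand 16 of the 64 genes held one, against 44.5% of all. The run is a description of letters in this window and does not show that a tract is used. The windows below belong to genes with which the comparisons lead, and the capitals mark the longest run found.
Rps26, chr10:128626487-128626516, - strand: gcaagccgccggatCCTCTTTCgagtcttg
Rps12, chr10:23787190-23787219, - strand: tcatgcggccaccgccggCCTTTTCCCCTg
Rps6, chr4:86857348-86857377, - strand: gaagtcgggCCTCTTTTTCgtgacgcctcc
Rpl14, chr9:120571507-120571536, + strand: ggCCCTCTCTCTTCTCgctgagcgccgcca
Rpl35, chr2:39005112-39005141, - strand: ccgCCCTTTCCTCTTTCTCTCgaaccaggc
Rpl12, chr2:32961702-32961731, + strand: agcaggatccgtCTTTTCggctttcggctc
Rpl22, chr4:152325716-152325745, + strand: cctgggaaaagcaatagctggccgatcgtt
Rpl5, chr5:107900518-107900547, + strand: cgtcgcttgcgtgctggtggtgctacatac
Rpl23, chr11:97782420-97782449, - strand: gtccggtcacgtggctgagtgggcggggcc
In Rps6 the run starts 1 base before the annotated start, while in Rps26 and Rps12 it starts at bases 5 and 9. The windows of Rpl22, Rpl5 and Rpl23 printed here hold no run, while a second annotated start of Rpl22 (chr4:152324426-152324455) has one of 5 letters. The run was found in 7 of the 10 genes with a window that were higher in CgA-KO/hTau than in hTau, and in 35 of the 52 that were tested and not called.

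Library totals ran from 8838334 to 227651681 counts, and among low counts a value of 3 was more frequent than 2 or 4 in every library, with values of 1 about as frequent as 3, so the number of fragments behind a count is not known. Chga had a median of 160.4 CPM (counts of a gene set against the library's total, scaled by the trimmed mean of M values) in WT and 166 in hTau, and was 0 in all 6 CgA-KO/hTau libraries. Prnp, whose promoter drives the transgene, ran from 747 to 914 CPM in WT, from 1973 to 2367 in hTau and from 1235 to 2078 in CgA-KO/hTau. Replicates 1 to 3 of every genotype held Ddx3y, a Y-linked gene, at 49.8 to 76.8 CPM, and replicates 4 to 6 at no more than 0.0582. The study states that each group held males and females, and the labels give no sex per sample, so sex and the other measures that differ between these ranges cannot be told apart. Some libraries were closer to each other than replicates elsewhere. The robust SD of the log2 ratio over 3761 well-covered genes was 0.0523 to 0.0607 within hTau replicates 4 to 6 and 0.0980 between CgA-KO/hTau replicates 1 and 3, above the counting error in each case, and 0.146 or more in every other pair. With each of these sets averaged to 1 library, 15 genes were higher in CgA-KO/hTau than in WT, 1 was higher than in hTau and none was lower in WT than in hTau (edgeR, 11 lower at an unadjusted p under 0.05), against 43, 15 and 1 in the comparisons that follow. Averaging also took the counts over all genes from 822 to 309, from 1268 to 103 and from 450 to 76, in the same order. The study calls its replicates biological, while the labels do not tie libraries to animals. Cortical markers were present in every library, with 8 of 8 detected and a summed level of 989 to 2446 CPM in WT, 1710 to 1956 in hTau and 1110 to 1795 in CgA-KO/hTau. The 15 striatal markers, none at 0, summed to 678 to 2673 CPM in WT, to 122 to 173 in hTau and to 163 to 1601 in CgA-KO/hTau, where replicates 1 and 3 were high.

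Of the 87 genes, 84 passed the filter on low counts and were tested among 23062 genes. Rps12l1 and Rpl10l had no count in any library, which allows up to 9 counts, or 0.0396 to 1.03 CPM, and Rpl39l, a testis-enriched relative of Rpl39, stayed at or below 0.0959 CPM. In hTau the tested genes had a median of 85.4 CPM, and 34 of them stood at 100 CPM or more. Per kilobase of exon, Rplp1 of the P stalk was at the top in hTau with 316 CPM per kb, followed by Rps15 with 297, whereas Rpl3l, a form known from muscle, was lowest with 0.119 and the pseudogene Rpl32l next with 1.89. The spread between hTau libraries was smallest for Rps15a, with a coefficient of variation of 3.11%, and largest for Rpl3l with 56.2%. Over the 84 genes the median coefficient of variation was 10.9% in hTau, 17.2% in WT and 28.7% in CgA-KO/hTau. These genes have many processed pseudogenes of nearly identical sequence, and how the counting shared reads among them is not stated, so each level is uncertain to that extent.

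The 87 genes together took a larger share of the counts in 3 of the 6 CgA-KO/hTau libraries than in any other library. In CgA-KO/hTau the share was 1.15%, 0.947% and 1.20% in replicates 1 to 3, and 0.801%, 0.738% and 0.676% in replicates 4 to 6. In hTau it was 0.780%, 0.752% and 0.666% in replicates 1 to 3, and 0.869%, 0.822% and 0.815% in replicates 4 to 6. In WT it was 0.610%, 0.757%, 0.723%, 0.549% and 0.625%. Replicates 4 to 6 of CgA-KO/hTau thus lay within the range of all hTau libraries but below each of hTau replicates 4 to 6. WT replicate 4, the shallowest library, had the lowest share. In bulk tissue a change in the make-up of the sample and a change in RNA per cell cannot be told apart.

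**Figure D1:**
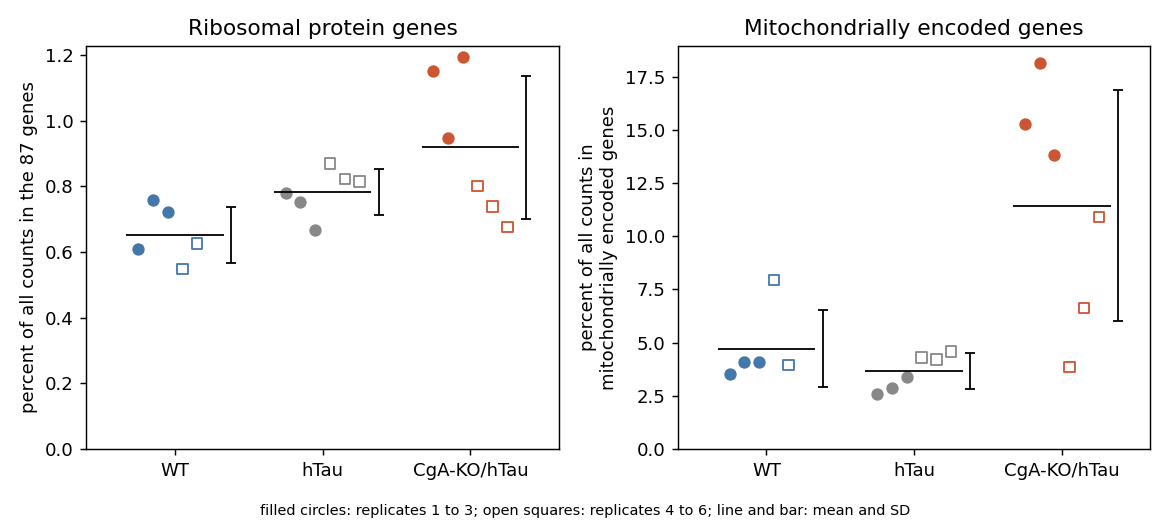
Percent of all counts in the 87 ribosomal protein genes (left) and in mitochondrially encoded genes (right) for each of the 17 libraries by genotype, with the mean and SD. Replicates 1 to 3 of CgA-KO/hTau, at 0.947% to 1.20%, stand above the other libraries on the left and at 13.8% to 18.2% on the right.

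Several other measures moved with that split. Mitochondrially encoded genes took 15.3%, 18.2% and 13.8% of the counts in CgA-KO/hTau replicates 1 to 3 against 3.84%, 6.63% and 10.9% in replicates 4 to 6, and 2.56% to 4.59% in hTau. The 6 astrocyte markers summed to 1897 to 2247 CPM in replicates 1 to 3 of CgA-KO/hTau and to 1040 to 1217 in replicates 4 to 6, against 1093 to 1415 in hTau and 947 to 1208 in WT. The 6 oligodendrocyte markers summed to 2512 to 2942 CPM in replicates 1 to 3 and to 1507 to 1608 in replicates 4 to 6, against 1223 to 1761 in hTau and 1094 to 1795 in WT. The 8 neuron markers summed to 6299 to 9372 CPM in replicates 1 to 3 and to 10461 to 15124 in replicates 4 to 6, against 9846 to 10887 in hTau and 7507 to 12995 in WT. The 8 nuclear noncoding RNAs, Malat1 and Neat1 among them, summed to 3675 to 4626 CPM in replicates 1 to 3 and to 1998 to 2671 in replicates 4 to 6. No marker of these lists was at 0 in all libraries of a genotype. The part of each in the results on ribosomal protein genes was not tested, apart from the fits with a covariate given for each comparison.

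Between CgA-KO/hTau and hTau, 15 of the 84 genes were higher in CgA-KO/hTau and none was lower at an edgeR adjusted p under 0.05, while 5.5% of all genes tested were called higher and 4.22% lower. At an unadjusted p under 0.05, 33 were higher and 0 lower, a count for which the share of all genes is not given. DESeq2 called 21 higher and 0 lower. Of all genes DESeq2 called 2338 higher and 1620 lower, against 1268 and 974 by edgeR. The median log2 fold change of the 84 genes was 0.29, against 0.03 over all genes, and 78 lay above 0. The genes called included Rpl5, Rpl14, Rpl17, Rpl21, Rpl23, Rpl26, Rpl29, Rpl35, Rpl36a and Rpl6l of the large subunit and Rps6, Rps12, Rps24 and Rps26 of the small subunit. The log2 fold changes of the genes called ran from 0.35 to 1.23, the largest being 2.35 times the hTau level. In 4 of them, Rpl23, Rpl29, Rpl6l and Rps26, every CgA-KO/hTau library stood above every hTau library, against 2.84% of all genes. By the fold and p limits of the study's methods (log2 fold change over 0.5, p under 0.01) 11 genes were higher, against 6.3% of all genes. Leaving out 1 library moved the count of 15 to between 6 and 26, with 8 without CgA-KO/hTau replicate 1, 6 without replicate 2, 26 without replicate 4 and 8 without hTau replicate 2 or 3. Of all genes 692, 616, 2018, 629 and 775 were higher in these fits, in that order, against 1268 with every library.

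Rps26 and Rpl29 led this comparison. Rps26, which lies on the small subunit where the mRNA leaves it (chr10:128624534-128626747, - strand, GRCm38), was at 136, 145, 122, 73.5, 113 and 120.5 CPM in CgA-KO/hTau replicates 1 to 6, and ran from 54.4 to 64.5 with a median of 57.8 in hTau. In WT it was at 57.3, 77.4, 65.0, 69.2 and 84.4 CPM. CgA-KO/hTau and hTau libraries did not overlap, and replicate 4 was the lowest of CgA-KO/hTau. Its log2 fold change against hTau was 1.01 ± 0.13 (SE; edgeR adjusted p = 0.000399).

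Rpl29, a small basic protein on the surface of the large subunit (chr9:106429454-106431568, + strand), was at 68.7, 35.3, 74.2, 37.7, 30.8 and 23.6 CPM in CgA-KO/hTau replicates 1 to 6. In hTau it ran from 15.8 to 22.0 CPM with a median of 19.5, and in WT it was at 15.1, 18.7, 16.9, 10.2 and 15.7. All 6 CgA-KO/hTau libraries were above the other 11, with replicates 1 and 3 far above the rest. The log2 fold change was 1.23 ± 0.24 against hTau (SE; edgeR adjusted p = 0.00603) and 1.55 ± 0.25 against WT (adjusted p = 0.00258), the largest of the 84 genes in both comparisons.

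Rps12, a protein of the beak of the small subunit (chr10:23785183-23787275, - strand), was at 81.7, 80.1 and 83.9 CPM in CgA-KO/hTau replicates 1 to 3 and at 35.8, 41.6 and 59.9 in replicates 4 to 6. Its range in hTau was 30.2 to 42.3 CPM with a median of 37.4, so replicates 4 and 5 lay within it. The log2 fold change against hTau was 0.80 ± 0.20 (SE; edgeR adjusted p = 0.0190).

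Rps24, a small-subunit protein whose gene is mutated in some cases of Diamond-Blackfan anaemia (chr14:24487125-24496959, + strand), was at 228, 263, 213, 105, 154 and 193 CPM in CgA-KO/hTau replicates 1 to 6. It ran from 95.7 to 136 CPM in hTau, with a median of 112. Replicate 4 alone fell in the hTau range, and the log2 fold change was 0.75 ± 0.18 (SE; edgeR adjusted p = 0.0156). Rpl14, a large-subunit protein (chr9:120571444-120574654, + strand), was at 191, 168, 146, 94.7, 123 and 218 CPM in CgA-KO/hTau and at 86.6 to 114 in hTau, with a median of 97.2. Its highest library was replicate 6, and in WT replicate 4 stood at 162 CPM over 68.9 to 91.9 in the other 4. The pseudogene Rpl6l (chr10:111125851-111126721, + strand), a copy of Rpl6, ran from 11.4 to 23.2 CPM in CgA-KO/hTau and from 8.95 to 10.4 in hTau, without overlap. Its log2 fold change of 0.80 ± 0.19 (SE; edgeR adjusted p = 0.0150) compares with 0.15 ± 0.13 for Rpl6 itself (adjusted p = 0.477), with which it may share reads.

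**Figure D2:**
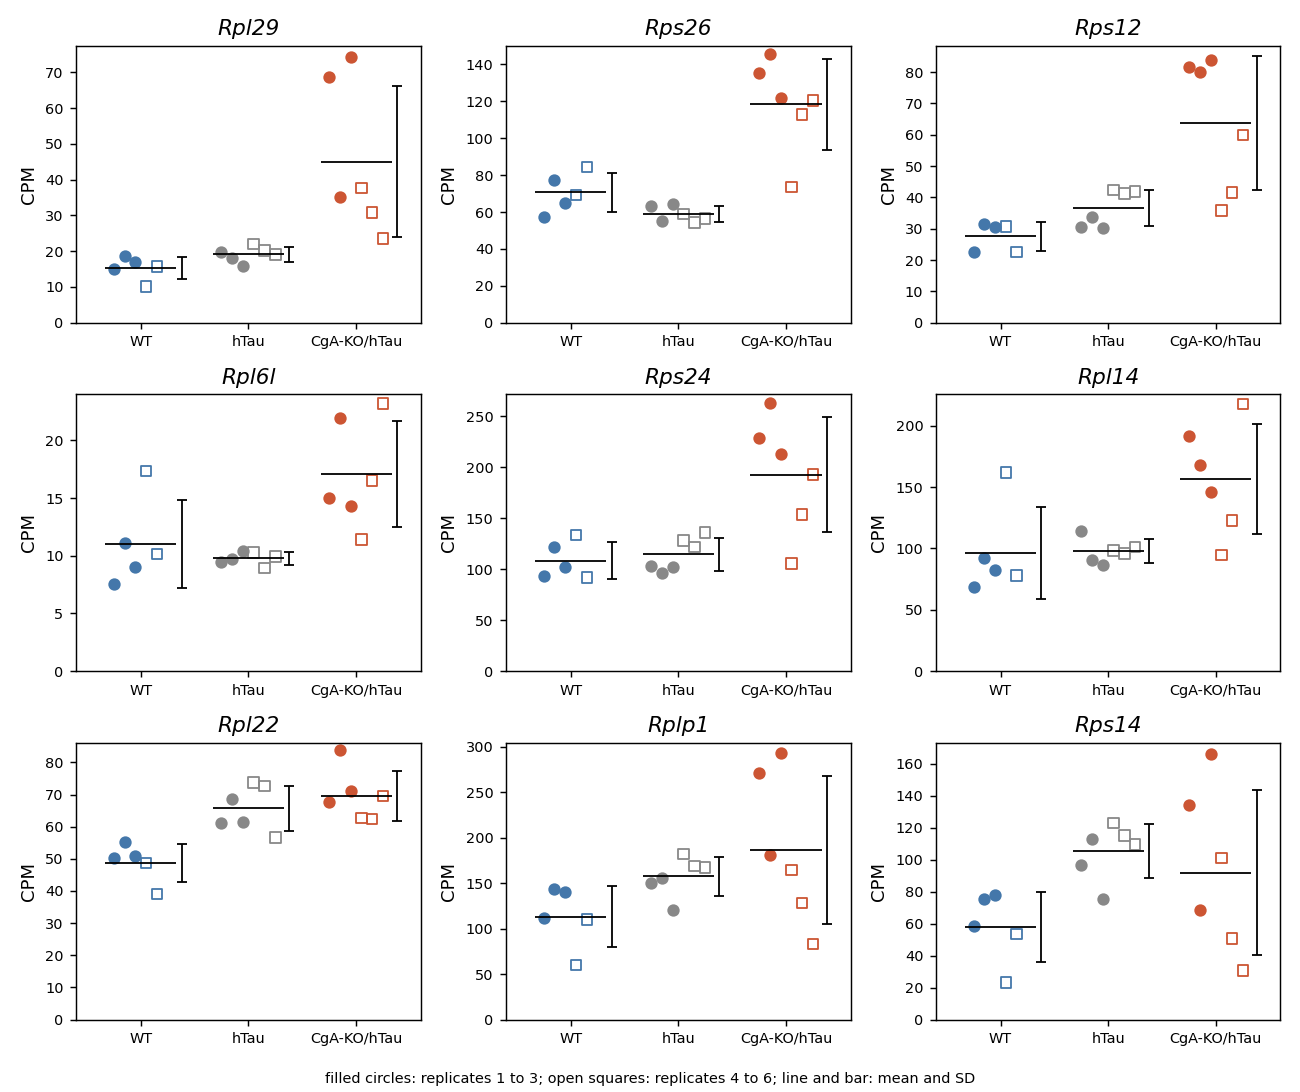
CPM of 9 ribosomal protein genes in each library by genotype, with the mean and SD. Rps26 and Rpl29 are above every hTau library in all 6 CgA-KO/hTau libraries, Rps12 is at 80.1 to 83.9 CPM in replicates 1 to 3 alone, and Rps14 and Rplp1 are lowest in WT replicate 4 and CgA-KO/hTau replicate 6.

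This result rested largely on CgA-KO/hTau replicates 1 to 3. Within replicates 1 to 3 of both genotypes, 64 of the 84 genes were higher in CgA-KO/hTau, against 11.7% of all genes, with a median log2 fold change of 0.70. Within replicates 4 to 6 only Rps26 was higher, against 1.08% of all genes, and the median was −0.16, with 61 of the 84 genes below 0. The test of the difference between the 2 ranges called 46 genes, all with the larger rise in replicates 1 to 3, against 4.97% of all genes. Within CgA-KO/hTau alone, 60 genes were higher in replicates 1 to 3 than in 4 to 6, against 8.1% of all genes. Within hTau alone the median of replicates 1 to 3 minus 4 to 6 was −0.21, with 4 of the 84 genes above 0 and 0 called. The difference between ranges holds both of these shifts. This fit of genotype by replicate range was chosen after the values were seen. It takes hTau replicates 4 to 6, and CgA-KO/hTau replicates 1 and 3, as separate replicates. These libraries were close to each other, so the SEs and counts of this fit may be too confident.

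The difference between ranges had its smallest p for Rpl12, which sits at the base of the P stalk. Its log2 fold change was 0.90 ± 0.10 (SE) in replicates 1 to 3 and −0.14 ± 0.10 in replicates 4 to 6, a difference of 1.04 ± 0.14 (edgeR adjusted p = 0.000953). For Rpl17, beside the mouth of the exit tunnel, the values were 1.04 ± 0.11 and 0.01 ± 0.11, a difference of 1.04 ± 0.15 (adjusted p = 0.00134). Rps26 gave 1.14 ± 0.17 and 0.85 ± 0.16, and the difference of 0.29 ± 0.23 did not pass the test (adjusted p = 0.461). Rpl29 gave 1.73 ± 0.25 and 0.59 ± 0.24, a difference of 1.14 ± 0.34 (adjusted p = 0.0442).

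**Figure D3:**
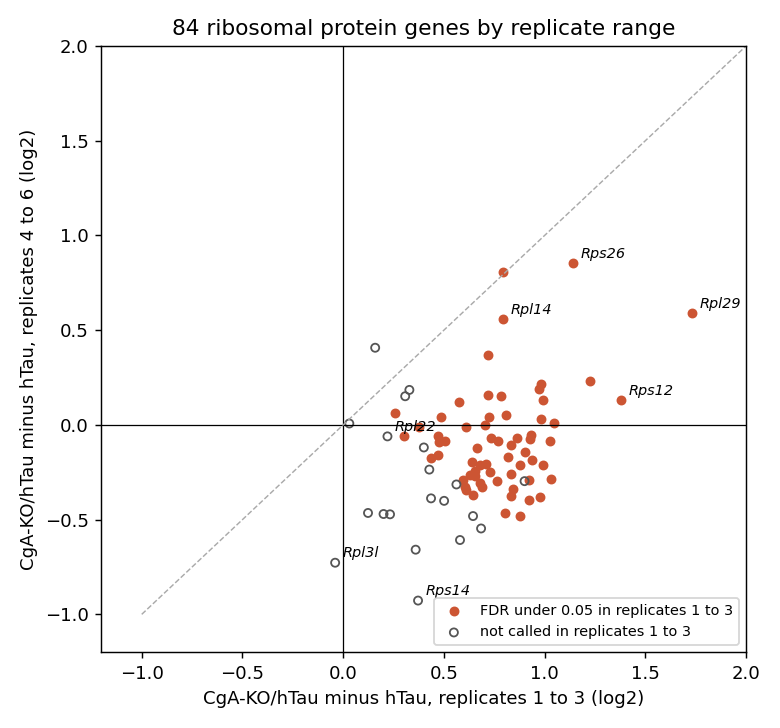
Log2 fold change of CgA-KO/hTau minus hTau for the 84 genes tested, in replicates 1 to 3 (x axis) and in replicates 4 to 6 (y axis), which share no library; the dashed line marks equal values. 82 genes lie below the line, and Rps26 is the gene called in both ranges.

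Between CgA-KO/hTau and WT, 43 of the 84 genes (51.2%) were higher in CgA-KO/hTau and none was lower, while 3.56% of all genes were called higher and 2.89% lower. At an unadjusted p under 0.05, 74 were higher and 0 lower, a count for which the share of all genes is not given. DESeq2 called 61 higher and 0 lower. Of all genes DESeq2 called 1497 higher and 1067 lower, against 822 and 667 by edgeR. The median log2 fold change was 0.63, against 0.01 over all genes, and 82 of the 84 genes lay above 0. The called genes were 27 of the large and 16 of the small subunit, with log2 fold changes from 0.38 to 1.55. In 12 of them every CgA-KO/hTau library was above every WT library, against 2.06% of all genes, and by the limits of the study's methods 47 were higher, against 4.66%. Of the 15 genes called against hTau, 12 were among the 43. The hTau and WT comparisons share the CgA-KO/hTau libraries, so these counts are not independent.

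The genes with the smallest p after Rpl29 were Rps12, Rpl12, Rpl17, Rps26 and Rpl38. Rps12 was at 22.7, 31.6, 30.7, 30.8 and 22.6 CPM in WT, below all CgA-KO/hTau libraries, and its log2 fold change was 1.21 ± 0.21 (SE; edgeR adjusted p = 0.00376). Rpl12 was at 60.5, 81.5, 69.4, 53.3 and 59.0 CPM in WT and at 159.7, 156, 170.1, 96.3, 97.9 and 90.2 in CgA-KO/hTau, and the groups did not overlap (0.99 ± 0.17, adjusted p = 0.00399). Rpl17 was at 128 to 175 CPM in WT and at 367, 327, 348, 179, 211 and 219 in CgA-KO/hTau, again with no overlap (0.94 ± 0.17, adjusted p = 0.00508). Rpl38, which is known for selective translation of Hox mRNAs in the embryo, was at 40.6, 54.8, 48.3, 33.6 and 35.4 CPM in WT and at 101, 88.7, 106, 68.7, 52.9 and 65.3 in CgA-KO/hTau, where replicate 5 lay below WT replicate 2 (0.92 ± 0.18, adjusted p = 0.00642).

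The rise against WT was present in both replicate ranges, though called for fewer genes in the second. Within replicates 1 to 3, 72 of the 84 genes were higher, against 7.09% of all genes, and within replicates 4 to 6, where WT has 2 libraries, 10 were higher, against 2.55%. Those 10 were Rpl7, Rpl12, Rpl17, Rpl22, Rpl24, Rpl29, Rpl37, Rpl38, Rpl41 and Rps12. The test of the difference between ranges was passed by 2 genes, Rpl30 among them, against 1.9% of all genes. With only the 2 genotypes compared in the fit, 7 genes were higher, where 151 of all genes were, against 822 in the fit of all 17 libraries. With the log2 ratio of mitochondrially encoded to other counts as a covariate 0 were higher (edgeR; 24 at an unadjusted p under 0.05), where 125 of all genes were. That covariate also left 0 of the 15 genes higher against hTau (edgeR; 2 at an unadjusted p under 0.05), where 52 of all genes stayed higher and 23 lower. Without CgA-KO/hTau replicates 1 and 3, 15 genes were higher against WT and 4 against hTau. In that fit 465 of all genes were higher against hTau. The count of all genes against WT is not given for it, so no result is read from the 15. The count of 43 became 17 without WT replicate 5 and 27 without WT replicate 1, where 341 and 575 of all genes were higher.

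**Figure D4:**
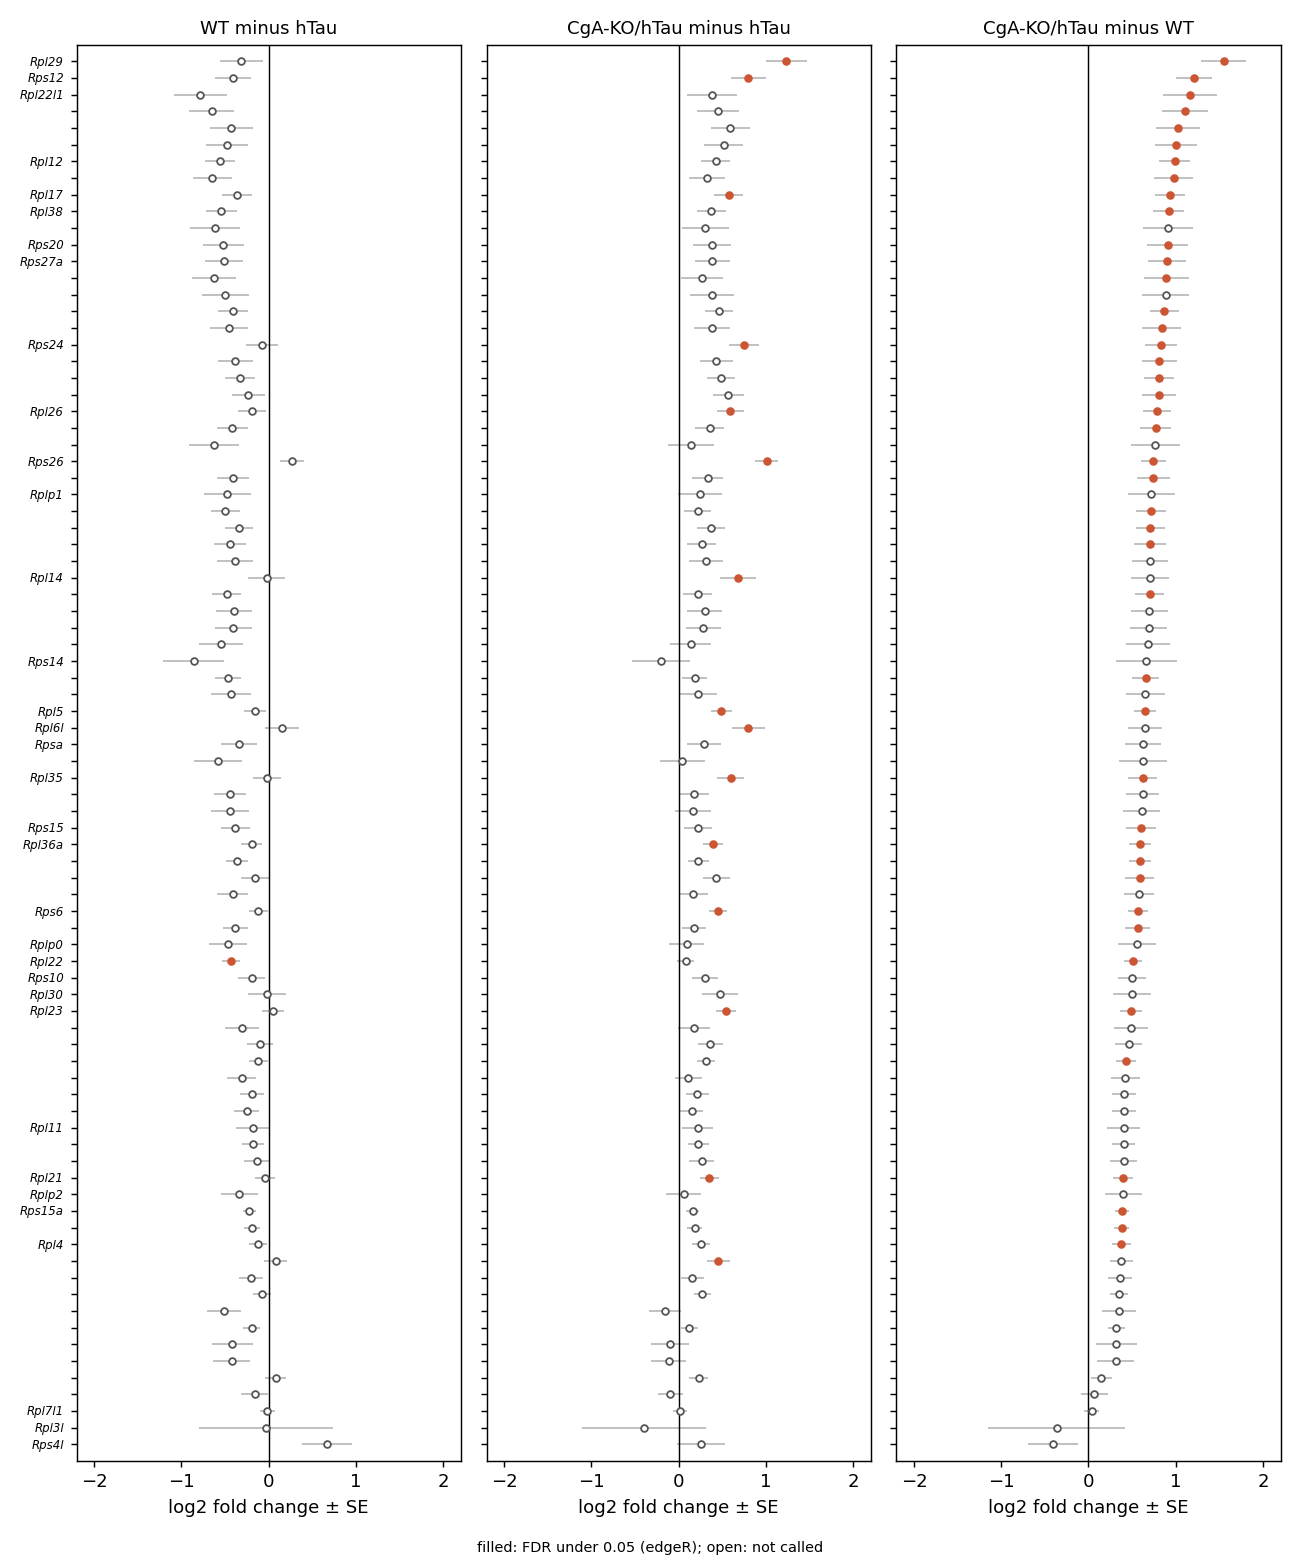
Log2 fold change with its SE for the 84 genes tested in the 3 comparisons, sorted by CgA-KO/hTau minus WT, with names for some of the genes in the text; filled points passed an edgeR adjusted p of 0.05. In the left panel Rpl22 is the gene called and 78 genes lie below 0, in the middle panel 15 are called and in the right panel 43, all above 0.

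Between WT and hTau, Rpl22 was the 1 gene called, lower in WT, against 1.95% of all genes, and none was higher, against 3.95%. At an unadjusted p under 0.05, 31 genes were lower and 1 higher, a count for which the share of all genes is not given. DESeq2 called 3 lower and 0 higher, and limma voom with sample weights called 23 lower and 1 higher. Of all genes DESeq2 called 1010 lower and 1386 higher, and limma voom 1868 and 2099, against 450 and 911 by edgeR. The median log2 fold change was −0.36, against −0.01 over all genes, and 78 of the 84 genes lay below 0. Rpl22, an RNA-binding protein at the outer side of the large subunit (chr4:152325742-152334071, + strand), was at 50.2, 55.2, 50.8, 48.7 and 39.1 CPM in WT and at 56.7 to 73.7 in hTau, with a median of 65.0. No WT library reached the hTau range, and the log2 fold change was −0.43 ± 0.11 (SE; edgeR adjusted p = 0.0210). CgA-KO/hTau libraries, at 62.4 to 83.9 CPM, lay within or above the hTau range. The call was lost without WT replicate 5, or without hTau replicate 2, 4 or 5.

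Libraries of WT and hTau also did not overlap, with WT lower, for Rpl12, Rpl36, Rpl41 and Rps15a, so that 5 of the 84 genes did, against 5.13% of all genes. By the limits of the study's methods Rpl12, Rpl38 and Rps21 were lower, against 2.81%. Within replicates 1 to 3 no gene was called, against 0.204% of all genes lower, and the median was −0.13. At an unadjusted p under 0.05 in either direction (edgeR) there were 4 of the 84 genes, against 13% of all genes. Within replicates 4 to 6, where WT has replicates 4 and 5, 41 genes were lower in WT, against 5.89%, with a median of −0.65. WT replicate 4 was the shallowest library, and its spread over these genes, given below, was the widest in WT. The fit takes it and the close hTau replicates 4 to 6 as separate replicates, so the count of 41 may be too confident. No gene passed the test of the difference between the ranges (34 at an unadjusted p under 0.05, against 10.1% of all genes). Striatal markers stood higher in every WT library than in any hTau library, and with their score as a covariate 60 genes were lower in WT and 4 higher in CgA-KO/hTau than in hTau. With this covariate 1605 of all genes were lower in WT and 827 higher in CgA-KO/hTau than in hTau.

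The genes were also grouped by position in the ribosome. The P stalk recruits the elongation factors. None of its genes Rplp0, Rplp1, Rplp2 and Rpl12 was called against hTau, with log2 fold changes from 0.06 to 0.42, and Rpl12 alone was higher against WT. Rplp1 was at 271, 181, 293, 164, 128 and 83.2 CPM in CgA-KO/hTau, a wider range than the 121 to 182 of hTau on both sides. Of the 5S ribonucleoprotein, which can bind Mdm2 when ribosome assembly fails, Rpl5 was higher against hTau (0.49 ± 0.12, edgeR adjusted p = 0.0187) and against WT (0.65 ± 0.13, adjusted p = 0.00667). Its partner Rpl11 was not called in either, at 0.22 ± 0.18 and 0.40 ± 0.19 (adjusted p = 0.452 and 0.224). Whether Rpl5 and Rpl11 differ from each other was not tested.

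Of the 6 genes at the exit tunnel or its mouth, Rpl17 and Rpl35 were higher against hTau, and Rpl4, Rpl17, Rpl22, Rpl35 and Rpl39 against WT, while Rpl23a was called in neither. Of the 4 genes at the mRNA entry and the decoding site none was called against hTau, where log2 fold changes were 0.17 to 0.33, and Rps15 and Rps23 were higher against WT. Rps6, the substrate of S6 kinase, was higher against hTau (0.45 ± 0.11, edgeR adjusted p = 0.0164) and WT (0.57 ± 0.11, adjusted p = 0.00717), at 203, 213, 209, 134, 162 and 169 CPM in CgA-KO/hTau and 123 to 142 in hTau. Rps27a, made as a fusion with ubiquitin, was higher against WT alone (0.90 ± 0.22, adjusted p = 0.0192). Rps20, one of the proteins ubiquitylated on collided ribosomes, was also higher against WT (adjusted p = 0.0281), whereas Rps10, another of them, had 0.50 ± 0.16 (adjusted p = 0.0682). Rpsa, the laminin receptor precursor, was called in no comparison.

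Some ribosomal proteins have a second gene with a different tissue pattern, and the ratio of the pair within a library does not depend on the scaling between libraries, although the prior added below ties it to depth where a gene is near 0. Of 8 pairs, 6 could be tested, with a prior of 9 counts added to both genes, in 18 exact permutation tests over libraries (two-sided). None passed after adjustment over the 18, where the smallest adjusted p was 0.125, and the smallest p possible was 0.00433 for 5 against 6 libraries and 0.00216 for 6 against 6. The lowest unadjusted p was 0.0260, for Rps4l/Rps4x in WT against hTau and for Rpl36al/Rpl36a in CgA-KO/hTau against WT. The log2 ratio of the pseudogene Rps4l to Rps4x was −3.21 ± 0.67 (SD, n = 5) in WT, −4.22 ± 0.53 (n = 6) in hTau and −4.06 ± 0.08 (n = 6) in CgA-KO/hTau. That of Rpl36al to Rpl36a was 0.33 ± 0.21 in WT, 0.07 ± 0.10 in hTau and −0.10 ± 0.30 in CgA-KO/hTau (SD).

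Rpl22l1, which Rpl22 is known to repress, was at 41.8, 20.8, 54.0, 29.3, 13.7 and 16.0 CPM in CgA-KO/hTau, at 11.6, 16.1, 16.9, 9.92 and 10.4 in WT and at 13.5 to 26.6 in hTau. It was higher against WT (1.17 ± 0.31, edgeR adjusted p = 0.0309). Its log2 ratio to Rpl22 was −1.91 ± 0.24 in WT, −1.57 ± 0.31 in hTau and −1.41 ± 0.78 in CgA-KO/hTau (SD). For Rpl22l1 the WT libraries overlapped those of both other genotypes, while for Rpl22 all WT libraries lay below them. The log2 ratio of Rpl7l1 to Rpl7 was −1.87 ± 0.10 in hTau and −2.12 ± 0.26 in CgA-KO/hTau, and that of Rps27l to Rps27 was −4.05 ± 0.11 and −3.85 ± 0.49 (SD). Rpl3l had 0 counts in WT replicate 4, hTau replicate 1 and CgA-KO/hTau replicates 2 and 6, where its ratio to Rpl3 is set by the prior and the count of Rpl3, so no group value is given, although its tests are among the 18.

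The genes did not move as a block in every library. For the 79 genes with a mean of 20 CPM or more, the deviation of each library from the mean of the others in its set was taken. CgA-KO/hTau replicates 1 to 3 and 4 to 6 were separate sets. In WT replicate 4 the SD of these deviations over the genes was 0.47 on the log2 scale, against 0.15 to 0.22 in the other WT libraries and a median counting error of 0.11 in that library. In CgA-KO/hTau replicates 2, 4 and 6 it was 0.36, 0.45 and 0.43, and in the 6 hTau libraries 0.10 to 0.19. Each CgA-KO/hTau library was set against fewer others than each hTau library, so these SDs are not on a like footing. Replicate 4 was set against replicates 5 and 6, so its SD also holds their spread. WT replicate 4 and CgA-KO/hTau replicates 2, 4 and 6 were singled out after their values were seen. In WT replicate 4 the deviation from the mean of the other WT libraries was lowest for Rps14, followed by Rps19 with −1.25 and Rpl13 with −1.19, and Rpl14 had 1.02. In CgA-KO/hTau replicate 6 the deviation from the mean of replicates 4 and 5 was −1.22 for Rps14, −0.89 for Rps19, −0.97 for Rpl13 and 1.01 for Rpl14. Over the 79 genes the deviations of WT replicate 4 and CgA-KO/hTau replicate 6 had a Pearson correlation of 0.89 and a Spearman correlation of 0.87, and those of WT replicate 4 and CgA-KO/hTau replicate 2 had 0.68 and 0.70. With CgA-KO/hTau replicate 4, which belongs to the set that replicate 6 is centred on, the correlations were −0.78 and −0.77. Replicate 2 is centred on replicates 1 and 3, which had −0.60 and −0.65, and −0.56 and −0.59. Of the hTau libraries, replicate 3, with 184571572 counts and a mitochondrially encoded share of 3.40%, had the highest correlations, 0.41 and 0.44. The other hTau libraries had Pearson correlations of −0.33 to 0.11. These are correlations across genes, which are not independent replicates. WT replicate 4 and CgA-KO/hTau replicates 6 and 2 had the highest mitochondrially encoded share of their sets, at 7.94%, 10.9% and 18.2% of counts, and WT replicate 4 and CgA-KO/hTau replicate 6 were the shallowest of their genotypes. The part of either in the pattern was not tested.

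**Figure D5:**
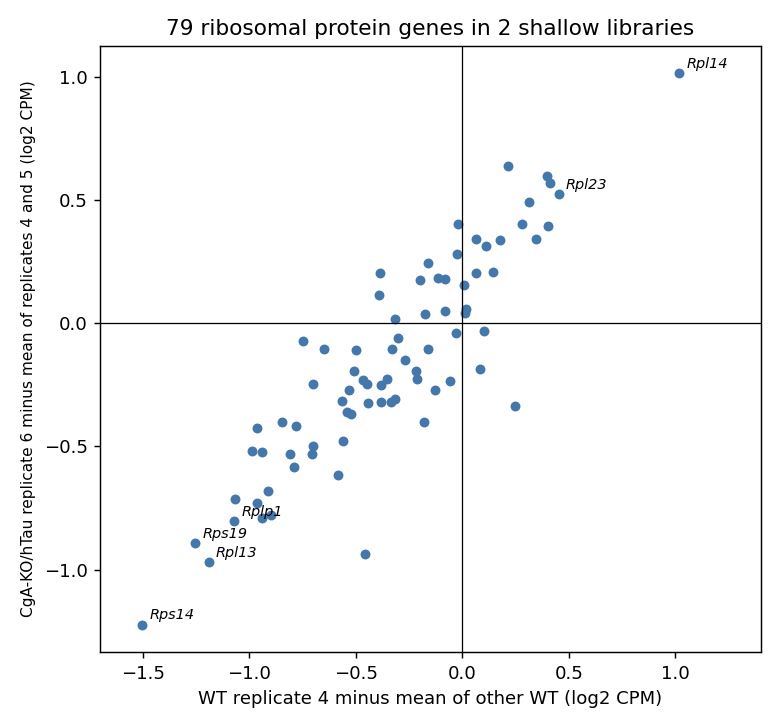
Deviation in log2 CPM of 79 ribosomal protein genes in WT replicate 4 from the mean of the other WT libraries (x axis) and in CgA-KO/hTau replicate 6 from the mean of replicates 4 and 5 (y axis). Rps14, Rps19, Rpl13 and Rplp1 are low and Rpl14 and Rpl23 are high in both libraries.

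The level of Rps14, a protein of the small-subunit platform, shows this spread, and it was singled out after its values were seen. It was at 58.6, 75.7, 78.1, 23.2 and 53.4 CPM in WT, at 75.4 to 123 in hTau with a median of 111, and at 134, 68.7, 166, 101, 50.8 and 30.7 in CgA-KO/hTau. Its log2 fold change was −0.86 ± 0.35 for WT against hTau, the lowest of the 84 genes, and did not pass the test (edgeR adjusted p = 0.168).

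Lists of other genes of translation are given by their counts, and their difference from the 84 genes was not tested. Of the ribosomal genes whose symbols the rule does not cover, Fau was higher against WT (0.58 ± 0.14, edgeR adjusted p = 0.0232). Of 19 other mRNAs known to carry a TOP tract, 4 were higher in CgA-KO/hTau than in hTau, namely Eef1b2, Eif3e, Pabpc1 and Ybx1, with none lower, and 4 were higher than in WT, namely Eif3e, Eif3h, Fau and Tpt1. The medians of the 19 were 0.25 and 0.28. Of 30 factors of ribosome biogenesis, such as Fbl and Ncl, edgeR called none in any comparison, with 5 lower and 0 higher against hTau at an unadjusted p under 0.05, and DESeq2 called 1 lower there. Of 83 mitochondrial ribosomal protein genes 3 were higher and 2 lower against hTau, and the median was −0.01. Of 60 initiation factors 1 was higher and 2 lower against hTau, and of 11 elongation factors Eef1b2 was higher and Eef1a2 lower. Among 18 regulators of TOP mRNAs and growth, Mtor (−0.35 ± 0.10, adjusted p = 0.0408) and Rps6ka1 (−0.42 ± 0.12, adjusted p = 0.0406) were lower in CgA-KO/hTau than in hTau, and Rps6ka1 was also lower in WT than in hTau. Larp1 was called in no comparison. Of 93 nuclear genes of the respiratory chain 6 were higher and 2 lower against hTau, and 17 were higher and 1 lower against WT. Of 42 proteasome genes 1 was higher and 3 lower against hTau.

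Pseudogenes named for ribosomal proteins were higher in CgA-KO/hTau as well, and their difference from the genes themselves was not tested. Of 322 such pseudogenes 168 passed the filter, and 51 were higher and 5 lower in CgA-KO/hTau than in hTau, with a median log2 fold change of 0.59. Against WT 63 were higher and 3 lower, with a median of 0.80, and between WT and hTau edgeR called none, with 15 lower and 2 higher at an unadjusted p under 0.05 and 1 lower and 2 higher by DESeq2. Together they took 0.0483% to 0.0608% of counts in WT, 0.0548% to 0.0661% in hTau and 0.0580% to 0.0774% in CgA-KO/hTau. Their reads and those of the genes they copy cannot be told apart from these counts.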

How the data were processed

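Libraries had been made from polyA RNA (KAPA mRNA HyperPrep) and sequenced paired-end. The authors trimmed reads with Trimmomatic 0.39, aligned them with STAR 2.7.10b to mm10 and counted them with StringTie 1.3.6, and the deposited values are whole-number counts per gene. Annotation release, strandedness and the treatment of multi-mapping reads are not given in the sources used here. Types and coordinates came from GENCODE M21 (GRCm38), for which all 87 genes matched.
Counts were fitted with edgeR 4.0.16 (quasi-likelihood test, TMM, filterByExpr) in R 4.3.3, all 17 libraries in 1 fit, with Benjamini-Hochberg adjustment over 23062 genes and a threshold of 0.05. DESeq2 1.42.0 and limma 3.58.1 were alternatives, and the test was checked on data with known changes. DESeq2 was run on every gene with a count, without filterByExpr, so its counts over all genes come from a different set of genes. Low counts peaked at 1, 3 and 6. As a cautious choice, the limit for a gene at 0 was set at 9 counts, as if 3 counts stood for 1 fragment, which is not known, and limits cover counting error only. Where a count at an unadjusted p under 0.05 has no share of all genes beside it, no result is read from it. Levels per kilobase use exonic length. The count of columns that belong to no sample was 0. The genes, lists, tests and structural groups were chosen with earlier results of these data known. Named genes were the 6 called with the smallest p per comparison and direction, those of the structural groups and paralog pairs, extremes of level and spread, and those below the filter. Same-numbered libraries of different genotypes had correlations of their deviations from −0.23 to 0.44, so numbers were not taken as pairs. Some named results are not reported here.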

Additional observations from a re-analysis of the deposited data

Results flagged for a closer look

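The rise of ribosomal protein genes in CgA-KO/hTau over hTau differed between replicates 1 to 3, in which Ddx3y was detected, and replicates 4 to 6 for 46 of the 84 genes (edgeR test of the difference, adjusted p under 0.05), each larger in replicates 1 to 3. The same test against WT passed for 2 genes, Rpl30 among them (1.24 ± 0.24, SE, adjusted p = 0.0109), a share near the 1.9% of all genes, whereas the 46 genes against hTau stand beside 4.97% of all genes. The ranges were defined from the data. Within CgA-KO/hTau the mitochondrially encoded share and the astrocyte, oligodendrocyte and striatal markers were higher in replicates 1 to 3, and their part was not tested. In hTau the mitochondrially encoded share was 2.56% to 3.40% in replicates 1 to 3 and 4.21% to 4.59% in replicates 4 to 6. Astrocyte markers were also lower in hTau replicates 1 to 3, while oligodendrocyte markers were higher. The fit takes the close libraries, hTau replicates 4 to 6 and CgA-KO/hTau replicates 1 and 3, as separate replicates, so its counts may be too confident.
WT replicate 4 stood apart from its group in the mitochondrially encoded share, at 7.94% of counts, and in Rpl14, at 162 CPM. hTau replicate 3 stood apart in Rpl22l1, at 13.5 CPM against 22.2 to 26.6 in the other 5, and hTau replicate 1 in Rps4l, at 13.8 CPM. Such a gap was found in 7 of 252 values of a gene in a group, or 2.78%, where chance gives about 1 in 20.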

How the results depend on the processing

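The direction of the median over the 84 genes held in every alternative against WT, and between WT and hTau, and turned against hTau in some of those below. Counts are given as higher in CgA-KO/hTau than WT, higher in CgA-KO/hTau than hTau, and lower in WT than hTau, with 43, 15 and 1 as reported, and the cause of a change was not tested. Parentheses hold the counts over all genes in the same order, with 822, 1268 and 450 as reported. No gene was lower in CgA-KO/hTau in any of these, and 1 was higher in WT with limma voom. DESeq2 gave 61, 21 and 3 (1497, 2338 and 1010), and limma voom 54, 24 and 23 (1170, 2379 and 1868). Fits of the 2 genotypes compared gave 7, 15 and 16 (151, 1550 and 975). No filter on low counts gave 32, 10 and 1 (504, 744 and 330). Averaging near-identical libraries gave 15, 1 and 0 (309, 103 and 76). The striatal score as a covariate gave 76, 4 and 60 (2258, 827 and 1605). The Ddx3y level gave 53, 15 and 4 (953, 1176 and 537), and the mitochondrial ratio 0, 0 and 12 (125, 52 and 600). Replicates 1 to 3 alone gave 74, 70 and 0 (1979, 3214 and 30), and replicates 4 to 6 alone 5, 0 and 16 (339, 128 and 674). The fit of genotype by range gave 72, 64 and 0 (1636, 2693 and 47) in replicates 1 to 3. In replicates 4 to 6 it gave 10, 1 and 41 (588, 250 and 1358). Without CgA-KO/hTau replicates 1 and 3 they were 15, 4 and 11. Beside the 4 and the 11 stand 465 and 756 of all genes. The count of all genes beside the 15 is not given, so no result is read from it. The last 2 alternatives were chosen after seeing the data. With the replicate block the counts were 20, 4 and 1 (325, 388 and 147). Library numbers do not pair the samples: 1 of 5 WT libraries, and 0 of 6 CgA-KO/hTau libraries, correlated best with the hTau library of their number. Leaving out 1 library gave 17 to 64, 6 to 26 and 0 to 3 (341 to 1053, 616 to 2018 and 127 to 606), and 0 to 1 gene higher in WT.
The median log2 fold change of WT minus hTau, −0.36 as reported, was −0.96 with the striatal score, −0.13 with replicates 1 to 3 alone or in the fit by range, and −0.67 and −0.65 with replicates 4 to 6. That of CgA-KO/hTau minus hTau, 0.29 as reported, was −0.012 with the striatal score, −0.031 with the mitochondrial ratio, 0.71 and 0.70 with replicates 1 to 3, −0.18 and −0.16 with replicates 4 to 6, and 0.049 without CgA-KO/hTau replicates 1 and 3. That of CgA-KO/hTau minus WT, 0.63 as reported, was 0.90 with the striatal score, 0.36 with the mitochondrial ratio and 0.39 without CgA-KO/hTau replicates 1 and 3. Leaving out 1 library gave −0.43 to −0.29, 0.18 to 0.38 and 0.53 to 0.70. With the mitochondrial ratio the genes called against hTau that turned sign included Rps12 (−0.090), Rps24 (−0.086), Rpl35 (−0.086), Rpl26 (−0.059), Rpl14 (−0.056), Rpl21 (−0.041), Rpl36a (−0.022) and Rpl17 (−0.0092), and Rpl17 did so with replicates 4 to 6 alone (−0.00946). DESeq2, which was run without the filter on low counts, moved the median of all genes for CgA-KO/hTau minus hTau from 0.03 to 0.13. No paralog ratio passed its adjusted threshold in any alternative. Depth limits WT replicate 4 most, where 9 counts are 1.03 CPM.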
